A study of Mus musculus with 2 samples.

Results

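The 10 genes described here encode bone morphogenetic proteins (BMPs), a growth and differentiation factor (GDF) and proteins that restrain them: the ligands Bmp2, Bmp4, Bmp6, Bmp7 and Gdf11, the secreted inhibitors Wfikkn2, Fst, Nbl1 and Grem1, and the membrane pseudoreceptor Bambi. They were chosen by symbol from the deposited gene list, and all 10 were present among 31053 genes. Transcripts were counted in single cells of mouse eye cups at postnatal day 0. The control library came from 3 pooled eye cups of Myrf fl/fl mice, whose Myrf alleles are both floxed and so can be removed by cre recombinase. The mutant library came from 3 pooled eye cups of Rx>cre Myrf fl/fl mice, in which an Rx-driven cre acts in the early eye field, which gives rise to neural retina and to retinal pigment epithelium (RPE). The study's methods state that cornea, lens and optic nerve were removed. There was 1 library per genotype, so no difference below has a replicate check, no test was possible, and intervals cover counting error only.

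BMPs and GDFs are secreted dimers of the TGFβ superfamily. They bind pairs of type I and type II serine/threonine kinase receptors, which phosphorylate SMAD proteins that enter the nucleus. BMPs act mainly through SMAD1, SMAD5 and SMAD9 and switch on the Id genes, while GDF11 acts like activin through SMAD2 and SMAD3. Extracellular antagonists bind the ligands and keep them from the receptors. BMP signalling takes part in patterning the optic vesicle and in specifying the RPE, and GDF11 limits the production of retinal ganglion cells.

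The control matrix held 14305 barcodes and 79017429 unique molecular identifiers (UMIs, each marking a captured transcript), and the mutant matrix held 12222 barcodes and 76272867 UMIs. After filters, 12513 control and 10851 mutant cells were kept, and 14 cell classes were named from marker genes, each called "-like". The RPE-like class was a single cluster of 486 control cells and 203 mutant cells, led by Ttr, Slc16a8 and Rgr. All 12 RPE markers were detected in it in the control and 11 of 12 in the mutant, at 31635 and 19670 summed CPM (UMIs of a gene relative to all UMIs of the class, on the usual CPM scale). Myrf itself was counted 743 times in RPE-like cells of the control and 64 times in those of the mutant, or 232 and 26.8 CPM, the direction the labels give. The libraries differed in ways other than Myrf. Median depth of RPE-like cells was 2450.5 UMIs (control) and 10566 UMIs (mutant), the pools differed in sex (Xist without Y-linked transcripts in 893 control and 7640 mutant cells), and 59 barcodes occurred in both libraries. Lens crystallin genes led a cluster of 823 control and 270 mutant cells and another of 68 control and 0 mutant cells. Both were shallow and stayed unnamed. Summed mesenchyme markers in RPE-like cells stood at 2556 CPM in the control and 374 in the mutant, with 0 and 1 of 15 markers undetected, and lens markers at 380 and 67.0 CPM, with 0 and 5 of 9 undetected. The part of depth, sex and these other transcripts in the results was not tested, apart from the restricted settings given below.

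Sequence upstream of the start sites is shown for Wfikkn2 and Bmp4, the members with the largest genotype differences in RPE-like cells. RefSeq promoter entries on GRCm38.p6 were found for 6 of the 10 genes. Both genes lie on the minus strand, and the stretches are written 5′ to 3′ in the direction of transcription. The Wfikkn2 stretch, chr11:94242708-94242829, ends at the start of the protein-coding transcript and lies in an intron of a longer noncoding transcript of the gene. The Bmp4 stretch, chr14:46390670-46390919, ends at the annotated start of the gene. Capitals mark matches to any of 6 motifs searched on both strands.

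Wfikkn2: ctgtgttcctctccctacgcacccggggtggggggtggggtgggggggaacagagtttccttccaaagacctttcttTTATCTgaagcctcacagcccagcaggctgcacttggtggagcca

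Bmp4: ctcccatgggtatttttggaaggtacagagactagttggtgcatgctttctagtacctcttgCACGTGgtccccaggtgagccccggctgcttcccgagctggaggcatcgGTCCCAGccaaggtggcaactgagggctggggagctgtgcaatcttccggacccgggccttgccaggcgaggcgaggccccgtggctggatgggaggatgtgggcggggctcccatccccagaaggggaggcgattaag

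The 6 motifs were chosen with the expression results known. The letters CTGGNAC are recognised by MYRF and ACAAAG by SOX factors. The letters AGATAA are bound by factors of the GATA family, and TAATCC is bound by OTX factors. The remaining motifs were TATAAA, found in the box of that name near many start sites, and CACGTG, an E-box that MITF can bind. The Wfikkn2 stretch held 1 GATA match, in reverse complement, and none of the other 5. The Bmp4 stretch held 1 MYRF match, in reverse complement, and 1 E-box, and none of the other 4. Over the 250 bases upstream of 32851 RefSeq promoters, 16.1% held the MYRF letters, 16.5% the SOX, 9.99% the GATA, 6.25% the OTX, 12.4% the TATA and 6.02% the E-box letters. The Wfikkn2 stretch is the part of its 250 bases farthest from the RefSeq start, which lies downstream of the stretch. In the same 122 distal bases of all these promoters, 5.46% held the GATA letters. Of the other 4 promoters, each over 250 bases, Bmp6 held 1 E-box, Gdf11 1 TATA match, Grem1 1 SOX match and Nbl1 no match. A match describes these letters only and is not a binding site.

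The first question was which cells of the eye cup were the sources of each gene. The members Bmp4, Bmp6, Bmp7 and Wfikkn2 had their highest level in RPE-like cells in both libraries. With every cell of at least 1000 UMIs given equal weight, Wfikkn2 in the mutant was instead highest in mesenchyme or pericyte-like cells. Bmp2 had its highest levels in astrocyte-like, RPE-like and endothelial-like cells, Gdf11 was highest in amacrine-like cells, and Fst, Nbl1, Bambi and Grem1 were highest in glial, mesenchymal, endothelial and mesenchymal classes, respectively.

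**Figure D1:**
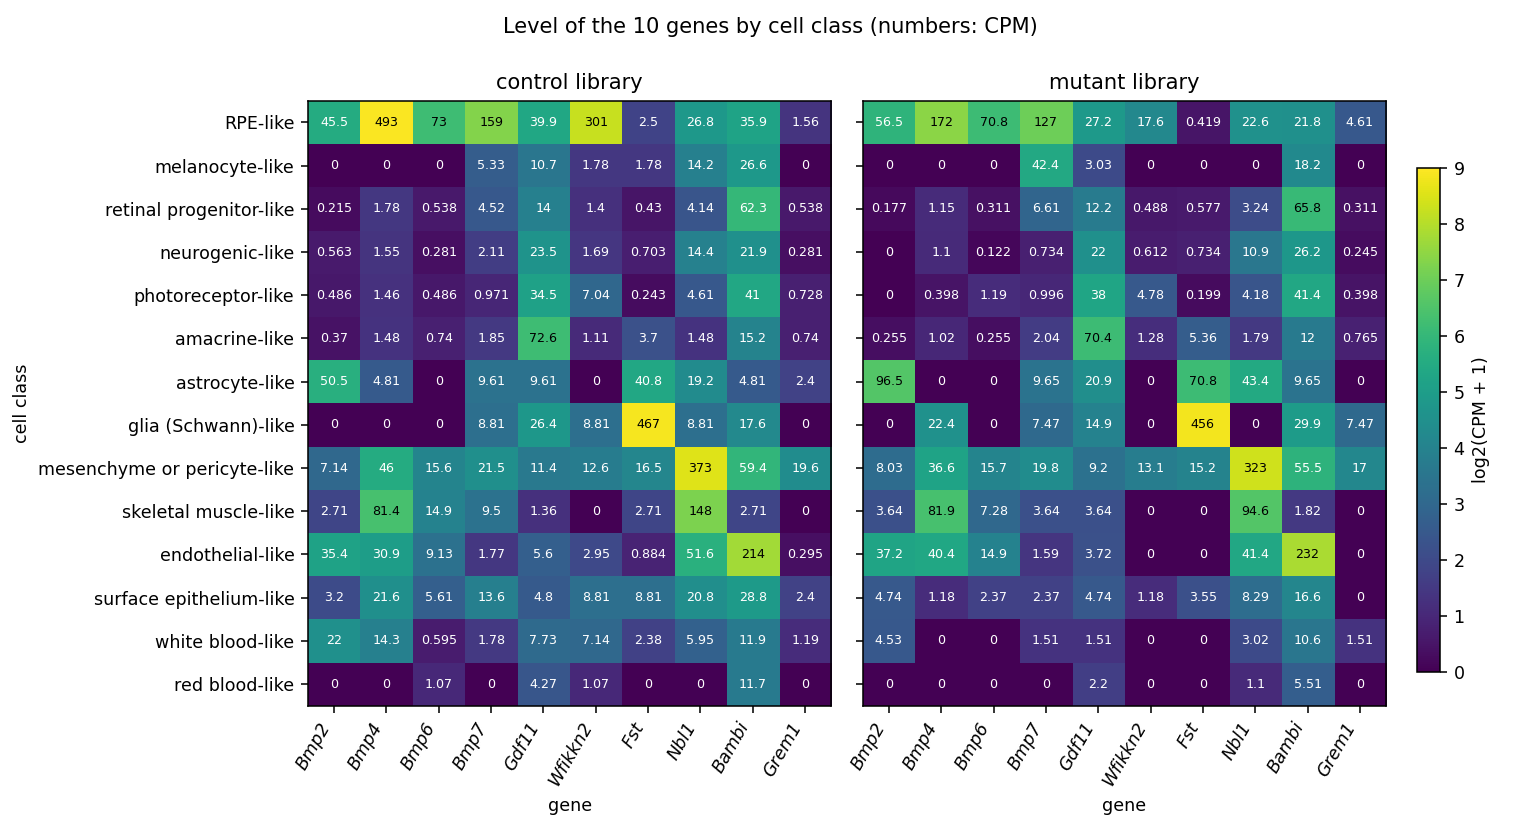
Level of each gene (columns) in each of the 14 named cell classes (rows) of the control and mutant libraries, with colour giving log2(CPM + 1) and the printed number the CPM. Bmp4, Bmp6, Bmp7 and Wfikkn2 are highest in the RPE-like row of both libraries, while Nbl1 is highest in mesenchyme or pericyte-like cells at 373 and 323 CPM. For Wfikkn2 in the mutant, the intervals of RPE-like and of mesenchyme or pericyte-like cells overlapped.

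Bmp4, a ligand required for lens induction and dorsal eye patterning, reached 493 CPM in control RPE-like cells (95% Poisson interval 469 to 518). These cells made up 3.88% of control cells and held 59.9% of the library's Bmp4 UMIs. Skeletal muscle-like cells came next at 81.4 CPM, followed by mesenchyme or pericyte-like cells at 46.0 CPM and endothelial-like cells at 30.9 CPM. In the mutant the order began in the same way, with 172 CPM in RPE-like cells and 81.9 CPM in skeletal muscle-like cells. Bmp7, a ligand needed for eye formation, stood at 159 CPM in control and 127 CPM in mutant RPE-like cells. Its next level in the control was 21.5 CPM in mesenchyme or pericyte-like cells, and in the mutant 42.4 CPM in melanocyte-like cells, a value that rests on 14 UMIs in 18 cells. Bmp6, a ligand of the same branch as BMP7, stood at 73.0 CPM in control RPE-like cells and at 15.6 CPM in mesenchyme or pericyte-like cells. The more numerous mesenchymal cells nevertheless held 43.7% of the control library's Bmp6 UMIs, against 42.2% for RPE-like cells. In the mutant library the order was reversed, with 42.1% against 44.5%.

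Bmp2, a close relative of BMP4, had no single source. In the control it stood at 50.5 CPM in astrocyte-like cells (31 cells, interval 31.2 to 77.1), at 45.5 CPM in RPE-like cells (38.4 to 53.6) and at 35.4 CPM in endothelial-like cells (29.3 to 42.3), and neighbours in this order had overlapping intervals. In the mutant the same 3 classes stood at 96.5, 56.5 and 37.2 CPM, and their intervals did not overlap. By share of Bmp2 UMIs, RPE-like cells held 31.4% (control) and 37.0% (mutant), and mesenchyme or pericyte-like cells 23.9% and 22.5%. Endothelial-like cells held 25.8% and 19.2%, and astrocyte-like cells 4.5% and 16.4%. Gdf11 was the member most spread over neurons. Amacrine-like cells had 72.6 CPM (control) and 70.4 CPM (mutant), above RPE-like cells (39.9 and 27.2 CPM) and photoreceptor-like cells (34.5 and 38.0 CPM). Retinal progenitor-like cells had 13.99 and 12.2 CPM.

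Wfikkn2 encodes a secreted multidomain protein that binds GDF11 and its relative myostatin. Control RPE-like cells held 966 of 1316 Wfikkn2 UMIs in the library (73.4%), at 301 CPM (interval 283 to 321). The next class, mesenchyme or pericyte-like cells, had 12.6 CPM. In the mutant, RPE-like cells held 42 of 246 UMIs (17.1%) at 17.6 CPM (12.7 to 23.8), which overlapped the 13.1 CPM of mesenchyme or pericyte-like cells (10.99 to 15.5). Mesenchymal cells thus held the largest share of Wfikkn2 in the mutant library, 54.5%, at a level close to that of the control. By cluster, Wfikkn2 stood at 31.5 CPM (control) and 29.1 CPM (mutant) in mesenchymal cells led by Acan. In those led by Clec3b it stood at 15.2 and 20.9 CPM. Of the mutant values, 29.1 CPM lay above the interval of mutant RPE-like cells and 20.9 CPM within it.

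The other inhibitors had their sources outside the RPE. Fst encodes follistatin, which sequesters activins and GDF11 and also binds BMPs. Its level in glia (Schwann)-like cells was 467 CPM in the control (53 UMIs, 21 cells) and 456 CPM in the mutant (61 UMIs, 20 cells), more than in any other named class. Those cells held 9.6% (control) and 16.1% (mutant) of Fst UMIs, against 46.5% and 40.9% for mesenchyme or pericyte-like cells. An unnamed cluster led by Lypd1, Hsd11b1, Cnn1 and Myh11 had 90.7 and 60.3 CPM (log2 ratio -0.58, -1.02 to -0.17), and astrocyte-like cells had 40.8 and 70.8 CPM. Nbl1, whose product DAN binds BMPs, was a mesenchymal gene here: mesenchyme or pericyte-like cells held 84.6% of its control UMIs and 84.5% of its mutant UMIs. Within that class a cluster led by Clec3b, Tnxb and Pi16 reached 779 CPM (control) and 767 CPM (mutant). Grem1, which encodes the BMP antagonist gremlin 1, was low, with 360 control and 220 mutant UMIs in all. Of these, 84.7% and 79.1% lay in mesenchyme or pericyte-like cells.

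Bambi encodes a membrane protein that resembles a type I receptor but lacks the kinase domain, so it blocks signalling. Endothelial-like cells had the highest level, 214 CPM (control) and 232 CPM (mutant). Retinal progenitor-like cells followed at 62.3 and 65.8 CPM and, being the most numerous named class, held 1158 and 1484 Bambi UMIs. A photoreceptor-like cluster led by the cone genes Pde6h and Opn1sw had 114 and 131 CPM, against 41.0 and 41.4 CPM for the class as a whole.

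**Figure D2:**
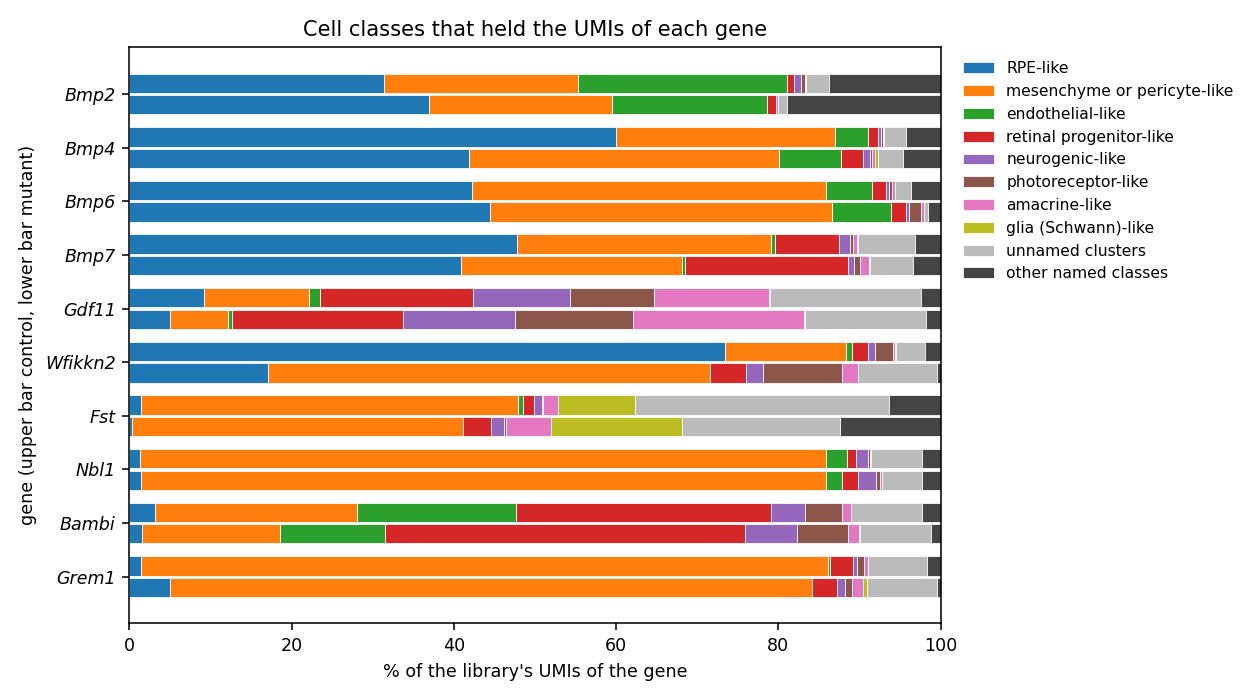
Share of each gene's UMIs (x axis, percent of the library's UMIs of that gene) held by each cell class, with the control as the upper and the mutant as the lower bar of each pair. The RPE-like share of Wfikkn2 was 73.4% (control) and 17.1% (mutant), and that of Bmp4 59.9% and 41.9%.

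The second question was how the genes differed between genotypes. In RPE-like cells 8 of the 10 genes reached 20 UMIs over both libraries, the minimum for a comparison. Wfikkn2 and Bmp4 were lower in the mutant by at least 2-fold with a counting interval apart from 0, and no member was higher by that rule. Over all 11072 genes compared in these cells, 5.28% were lower and 2.88% higher by the same rule. The 2-fold rule was applied to the plain ratio of CPM values, with nothing added. Printed log2 ratios have 1 CPM added to each side, so those of low genes are nearer to 0. The median log2 ratio (mutant over control) was -0.43 over the 8 genes and -0.01 over all genes. Intervals of log2 ratios are those of the plain ratio.

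Wfikkn2 had 966 UMIs in control and 42 UMIs in mutant RPE-like cells, or 301 and 17.6 CPM. The control was 17.1-fold higher, a log2 ratio of -4.02 (interval -4.58 to -3.65). All 42 mutant UMIs lay in cells with more than 8000 UMIs, 35 of 115 such cells holding at least 1. In that depth band the level was 330 CPM (control) and 19.7 CPM (mutant), and in cells of up to 4000 UMIs it was 186 CPM against 0 of 97869 UMIs. When every cell was thinned to 1000 UMIs in 1 random draw, 20.3% of control cells (Clopper-Pearson interval 16.4 to 24.6) and 1.68% of mutant cells (0.35 to 4.82) held a Wfikkn2 UMI, against 42.6% and 17.2% unthinned. The shares expected over all draws were 18.9% and 1.21%. For comparison, the thinned share in retinal progenitor-like cells, at median depths of 4522 and 4733 UMIs, was 0.053% and 0.023%, with 0.155% and 0.051% expected over all draws. Control RPE-like cells with a Myrf UMI, which were also deeper, had 352 CPM of Wfikkn2 and those without had 126 CPM. In the mutant the corresponding levels were 18.9 and 16.9 CPM.

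Bmp4 had 1582 UMIs in control and 411 UMIs in mutant RPE-like cells, or 493 and 172 CPM. The control was 2.87-fold higher, a log2 ratio of -1.51 (-1.68 to -1.36). The control was higher in each depth band, at 324 against 91.96 CPM up to 4000 UMIs, 376 against 95.4 CPM from there to 8000 UMIs, and 536 against 181 CPM above that. The thinned share of cells with a UMI was 31.2% (26.6 to 36.1) in the control and 8.38% (4.77 to 13.4) in the mutant in that draw, and 30.7% and 11.6% were expected over all draws. Bmp4 is overlapped on the opposite strand by Gm15217 and Gm15222, and whether the counting kept their reads apart is not given in the sources used here.

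**Figure D3:**
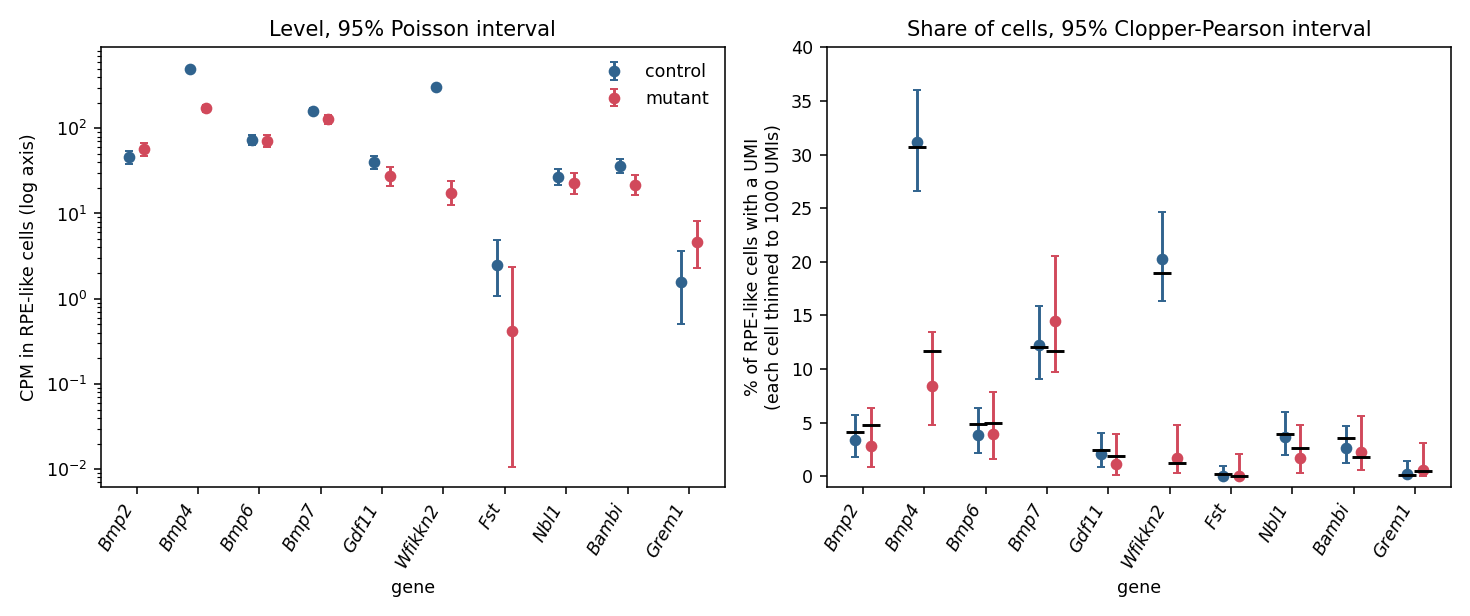
Level in RPE-like cells in CPM on a log axis (left, 95% Poisson intervals) and share of RPE-like cells with a UMI after each cell was thinned to 1000 UMIs (right, 1 random draw with 95% Clopper-Pearson intervals, black bars giving the share expected over all draws), control in blue and mutant in red. Wfikkn2 (301 and 17.6 CPM) and Bmp4 (493 and 172 CPM) are separated between the libraries on both scales.

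The other ligands differed less between the libraries in RPE-like cells. Bmp2 had 146 control and 135 mutant UMIs (45.5 and 56.5 CPM), with a log2 ratio of 0.31 whose interval included 0 (-0.04 to 0.66). The interval lay above 0 under 3 other choices of cells. The Bmp2 ratio was 0.78 (0.10 to 1.52, 31 and 42 UMIs) in cells with at most 5% mitochondrial UMIs, 0.37 (0.03 to 0.73) in cells chosen by a gate on pigment and RPE genes, and 0.97 (0.28 to 1.72, 31 and 39 UMIs) in the shallower of the 2 clusters taken as RPE-like at resolution 2, neither of which met the naming rule. In the deeper of them it was 0.05 (-0.35 to 0.45). Bmp6 had 234 and 169 UMIs (73.0 and 70.8 CPM), with a log2 ratio of -0.04 (-0.34 to 0.25). It was -0.53 (-1.10 to 0.01) in cells with at most 5% mitochondrial UMIs and -1.03 (-3.09 to 0.54) in the random draw of the thinning, with 18 and 4 UMIs, while the value expected over all draws was 0.04. Bmp7 had 511 and 304 UMIs (159 and 127 CPM), with a log2 ratio of -0.32 (-0.53 to -0.12). In the random draw of the thinning, which also leaves out cells below 1000 UMIs, it was 0.52 (-0.20 to 1.22), but the value expected over all draws was 0.019. The interval of Bmp7 also included 0 in cells with at most 5% mitochondrial UMIs (-0.22, -0.61 to 0.16), in cells with Y-linked and no Xist UMIs (-0.32, -0.73 to 0.08) and in the shallower cluster (-0.10, -0.50 to 0.30). Gdf11 had 128 and 65 UMIs (39.9 and 27.2 CPM), with a log2 ratio of -0.54 (-1.01 to -0.11). The interval of Gdf11 included 0 in cells with at most 5% mitochondrial UMIs (-0.18, -1.17 to 0.75), in cells with Xist and no Y-linked UMIs (-0.28, -0.97 to 0.41), in the random draw (-0.74, -3.25 to 1.15), in the shallower cluster (-0.57, -1.57 to 0.31) and in cells of at most 2000 UMIs, where the value was 1.10 on 5 and 2 UMIs. The mean of each cell's CPM gave -0.19.

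Among the remaining inhibitors in RPE-like cells, Bambi had 115 control and 52 mutant UMIs (35.9 and 21.8 CPM), with a log2 ratio of -0.69 (-1.22 to -0.24). Bambi stayed at or below -0.17 under every setting, but its interval included 0 in the deeper cluster at resolution 2 (-0.17), under the pigment gate (-0.34), in cells with at most 5% mitochondrial UMIs (-0.62), in cells with Y-linked and no Xist UMIs (-0.60), in the random draw of the thinning (-0.75) and in cells of at most 2000 UMIs (6 and 0 UMIs). Nbl1 had 86 and 54 UMIs (26.8 and 22.6 CPM), with a log2 ratio of -0.24 (-0.76 to 0.26), and lay below its level over all other cells (103 and 61.7 CPM). In the control, Nbl1 stood at 5.23 CPM in RPE-like cells with a Myrf UMI and at 101 CPM in those without. In the mutant the corresponding levels were 17.7 CPM (9.89 to 29.1) and 25.3 CPM (18.0 to 34.6), with overlapping intervals. The Nbl1 ratio was 1.54 in cells with Xist and no Y-linked UMIs (6 and 31 UMIs) and 0.78 under the pigment gate (51 and 64 UMIs), so its direction depended on which cells were taken. Fst had 8 and 1 UMIs and Grem1 5 and 11 UMIs, too few to compare, and the 11 mutant Grem1 UMIs came from 1 cell.

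Outside RPE-like cells, 41 comparisons of a gene in a class reached 20 UMIs. In 32 of them the interval included 0. In 6 the mutant was lower by the 2-fold rule and in none was it higher. All 6 rested on few mutant UMIs: Bmp2 in white blood-like cells (37 and 3 UMIs in control and mutant), Bmp4 in white blood-like cells (24, all in 3 of 255 cells, and 0) and in surface epithelium-like cells (27 and 1), Bmp7 in neurogenic-like cells (15 and 6), Wfikkn2 in retinal progenitor-like cells (26 and 11) and Nbl1 in surface epithelium-like cells (26 and 7). With 1 CPM added, the Bmp7 value (-0.84) and the Wfikkn2 value (-0.69) were short of 2-fold. Over all genes compared, the share lower by this rule was 3.72% in white blood-like, 3.35% in surface epithelium-like, 1.5% in neurogenic-like, 1.77% in retinal progenitor-like, 0.797% in mesenchyme or pericyte-like, 1.76% in photoreceptor-like, 1.21% in amacrine-like and 3.23% in endothelial-like cells. The share higher was 1.52% in white blood-like, 2.06% in surface epithelium-like, 0.776% in neurogenic-like, 1.18% in retinal progenitor-like, 0.908% in mesenchyme or pericyte-like, 0.796% in photoreceptor-like, 1.18% in amacrine-like and 0.752% in endothelial-like cells. RPE marker transcripts were also lower in these mutant classes. Their summed level was 643 CPM in control and 43.8 CPM in mutant white blood-like cells, 64.1 and 30.8 CPM in surface epithelium-like, 107 and 55.4 CPM in neurogenic-like, and 138 and 83.5 CPM in retinal progenitor-like cells, with 1 and 4, 3 and 6, 1 and 1, and 0 and 1 of 12 markers at 0, respectively. Their part in these differences was not tested.

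In the classes that were their main sources, the members that were not highest in RPE-like cells had smaller ratios between genotypes than Wfikkn2 and Bmp4 had in RPE-like cells. Gdf11 in amacrine-like cells had a log2 ratio of -0.04 (-0.31 to 0.23), and Bambi had 0.12 (-0.06 to 0.29) in endothelial-like and 0.08 (-0.03 to 0.19) in retinal progenitor-like cells. By cluster, Bambi was higher in the mutant in a neurogenic-like cluster led by Hes2 and Sstr2 (62 and 108 UMIs, 0.48, 0.03 to 0.97) and in an unnamed cluster led by Rsph1 (67 and 116 UMIs, 0.56, 0.12 to 1.02), and Gdf11 was lower in a retinal progenitor-like cluster led by Ung and Mybl2 (50 and 34 UMIs, -0.79, -1.51 to -0.18). Bmp7 in retinal progenitor-like cells was somewhat higher in the mutant, with 84 and 149 UMIs (4.52 and 6.61 CPM) and a log2 ratio of 0.46 (0.15 to 0.95). Of the 4 progenitor-like clusters compared, the interval lay above 0 in those led by Hist1h1b (18 and 44 UMIs, 0.78) and by Ube2c (26 and 50 UMIs, 0.66), and the value was -0.32 (-1.54 to 0.77) in the cluster led by Ung and Mybl2. Nbl1 in mesenchyme or pericyte-like cells, with 5795 and 3296 UMIs, had a log2 ratio of -0.21 (-0.27 to -0.15). Within the class, the ratio was -0.02 (-0.10 to 0.06) in the Clec3b, Tnxb and Pi16 cluster, which supplied 500 of 1380 control cells and 220 of 844 mutant cells. Bmp4 in the whole class had -0.32 (-0.51 to -0.15). It was 0.00 (-0.21 to 0.21) in that same cluster, -0.84 (-1.55 to -0.26) in a cluster led by Acan, and -2.01 (-4.94 to -0.93) in a cluster led by Col10a1, with 34 and 3 UMIs. In the Col10a1 cluster Bmp6 (26 and 3 UMIs, -1.66, -4.58 to -0.50) and Bmp7 (33 and 4 UMIs, -1.70, -4.10 to -0.65) were lower as well. RPE markers summed to 74.3 and 31.2 CPM in the Col10a1 cluster and to 60.1 and 89.2 CPM in the Acan cluster, with 1 and 3 and with 0 and 2 of 12 at 0. Grem1 was higher in the mutant in the Clec3b cluster (36 and 41 UMIs, 0.97, 0.37 to 1.74) and in the Acan cluster (100 and 102 UMIs, 0.47, 0.07 to 0.89), while the class as a whole had -0.19 (-0.48 to 0.07). The largest part of the control Grem1 UMIs lay in a cluster led by Tnmd, C1qtnf3 and Cilp, with 167 UMIs in 85 control cells and 30 UMIs in 44 mutant cells, too few cells for a ratio. The Grem1 level there was 172 CPM (147 to 200) in the control and 70.8 CPM (47.7 to 101) in the mutant, the opposite direction to the other 2 clusters. Fst was lower in the mutant in the Clec3b cluster (102 and 34 UMIs, -0.68, -1.32 to -0.15), and Nbl1 in a cluster led by Higd1b and Rgs5 (157 and 95 UMIs, -0.46, -0.85 to -0.09).

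The rest of the pathway was counted in RPE-like cells from lists of its genes. Over all genes compared there, 5.28% were lower and 2.88% higher by the 2-fold rule, with a median log2 ratio of -0.01. Of 20 other ligands only Gdf15 and Inha reached 20 UMIs, and neither passed the 2-fold rule. Of 14 receptors and co-receptors 10 were compared and none passed, with a median log2 ratio of -0.08. Bmpr1a, a type I BMP receptor, had 54.3 CPM (control) and 69.1 CPM (mutant), and Bmpr2, a type II receptor, 71.1 and 45.6 CPM. Of 16 other secreted inhibitors 9 were compared. Crim1, a membrane-anchored protein that binds BMPs, was lower by the rule, with 1132 and 278 UMIs (353 and 116 CPM, -1.59, -1.80 to -1.41). Sostdc1, which antagonises BMPs and WNTs, had the most UMIs of that list, at 703 and 797 CPM. None of the 4 processing proteases compared passed.

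The last list held targets of BMP signalling. Of 10 targets 9 were compared, 5 were higher and 1 lower by the rule, with a median log2 ratio of 1.23. Of all genes compared in these cells, 2.88% were higher and 5.28% lower, with a median of -0.01. Id3 had 2427 and 5480 UMIs (757 and 2295 CPM, log2 ratio 1.60, 1.53 to 1.67) and Id1 571 and 1156 UMIs (178 and 484 CPM, 1.44, 1.30 to 1.59). The products of both bind basic helix-loop-helix factors and keep them from DNA. Id4 (21 and 40 UMIs, 1.23), Smad9 (5 and 30 UMIs, 2.41) and the transcription factor gene Atoh8 (26 and 64 UMIs, 1.61) were also higher, and the homeobox gene Msx1 was lower (35 and 6 UMIs, -1.76). Id2 was at 453 and 437 CPM. The Id4 value was 0.22 (-1.09 to 1.54, 12 and 11 UMIs) in cells with at most 5% mitochondrial UMIs, 0.61 (-0.62 to 1.95, 12 and 12 UMIs) in the shallower cluster at resolution 2 and 0.13 as a mean of each cell's CPM. In the shallower cluster the intervals of Smad9 (1.04, -0.83 to 3.52, 4 and 6 UMIs) and Atoh8 (0.84, -0.37 to 2.21, 11 and 13 UMIs) also included 0. Smad9 was 0.09 in the random draw of the thinning, on 2 and 1 UMIs, while the value expected over all draws was 1.94. Atoh8 was 0.91 (-0.63 to 2.54) in cells with Y-linked and no Xist UMIs and 0.64 as a mean of each cell's CPM. The Id1 and Id3 values were 0.77 and 0.97 in the shallower cluster and 1.68 and 2.03 in the deeper one. The lowest Id1 value under any setting was 0.45, in cells of at most 2000 UMIs. Msx1 was not lower in the deeper cluster (0 and 1 UMIs), under the pigment gate (0 and 1), in cells with at most 5% mitochondrial UMIs (4 and 5) or in cells with Xist and no Y-linked UMIs (0 and 6). The study itself examined Id and Smad genes in these libraries, and also Wfikkn2, Gdf11, Bmp2 and Bmp4. The direction of this list and of those members is therefore not independent evidence.

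**Figure D4:**
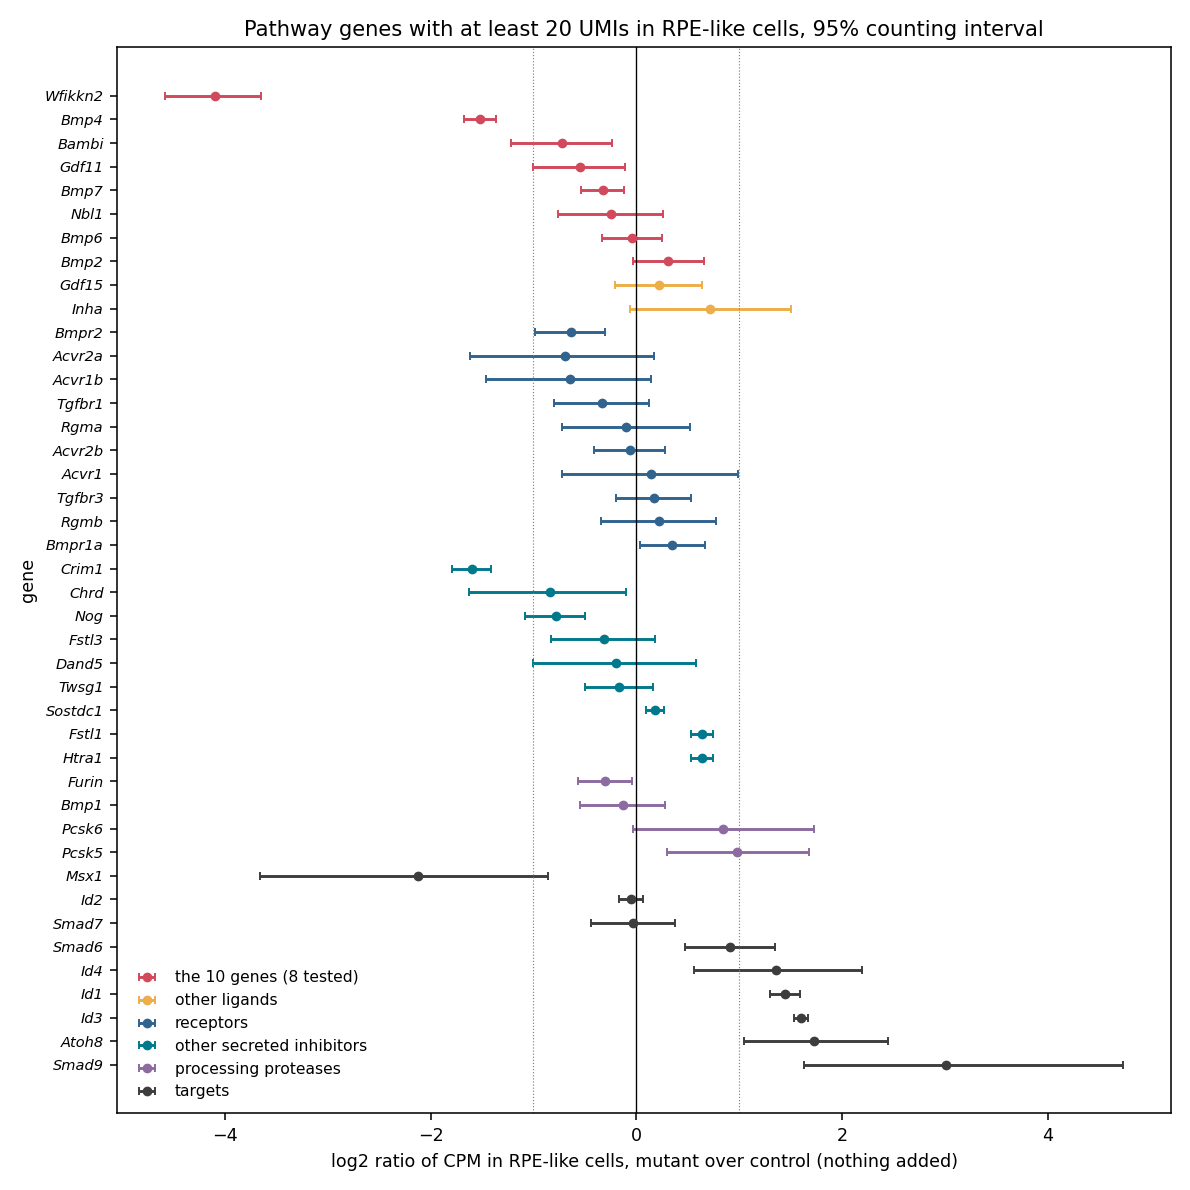
Log2 ratio of CPM in RPE-like cells (x axis, mutant over control, nothing added, 95% counting intervals) for every pathway gene with at least 20 UMIs, coloured by list, with dotted lines at 2-fold. Wfikkn2, Bmp4, Crim1 and Msx1 lie to the left of the dotted line, and Smad9, Atoh8, Id3, Id1 and Id4 to the right.

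For each member the genes with the most similar levels were sought over 20 points, 10 classes in 2 libraries, by Pearson correlation of log2(CPM + 1) among 14713 genes. The points share libraries and depths, so the values describe likeness only. Wfikkn2 was most like Me1 (0.93), Tmem151a (0.90) and Vasn (0.90). Bmp4 was most like Bace2 (0.95), its antisense neighbour Gm15222 (0.95) and Dmtn (0.94), and Bmp6 was most like Bace2 (0.95), Ephx1 (0.94) and Bmp4 itself (0.94). Bmp7 was most like Acot11 (0.95), Jsrp1 (0.93) and Sema3b (0.93), and Bmp2 most like Arhgef3 (0.96), Sgk1 (0.94) and Sema6d (0.92). Gdf11 was most like Gnao1 (0.97), which encodes a G protein subunit abundant in neurons, Zfp811 (0.95) and Snrpn (0.94). Among the inhibitors, Fst was most like Spon2 (0.93), Gfra4 (0.89) and Sema3a (0.89), Nbl1 most like Cthrc1 (0.96), Htra3 (0.94) and Flnc (0.94), Bambi most like Dock6 (0.93), Caskin2 (0.93) and Lpar4 (0.90), and Grem1 most like Pdgfrl (0.95), Abca8a (0.95) and Ednra (0.94).

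**Figure D5:**
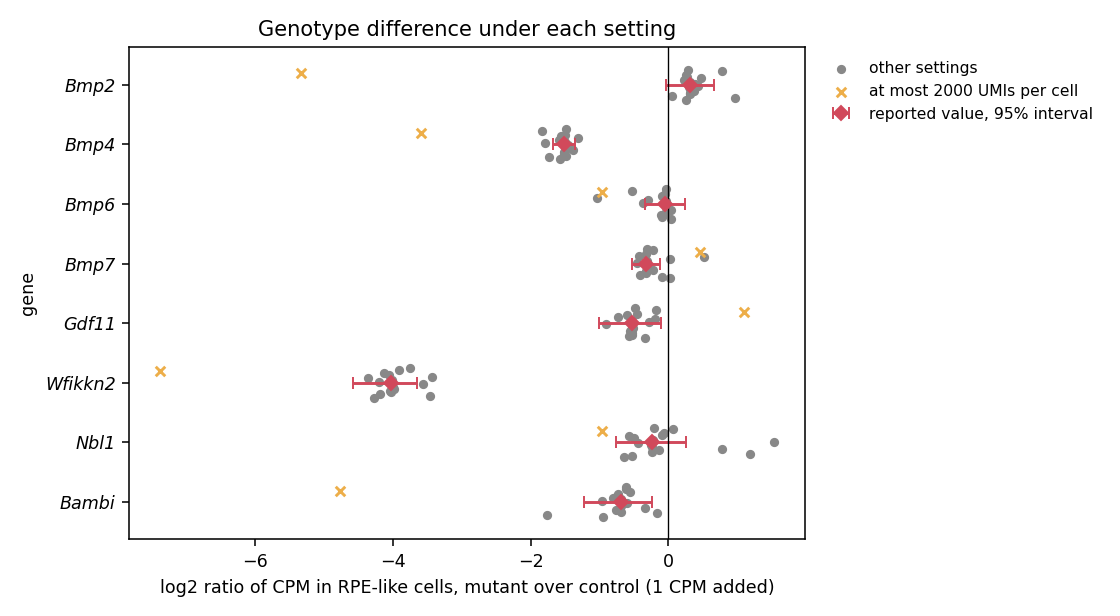
Log2 ratio in RPE-like cells (x axis, mutant over control, 1 CPM added) of the 8 compared genes, with the reported value and its 95% interval as a diamond and other processing settings as grey dots, or a cross for cells of at most 2000 UMIs. Wfikkn2, Bmp4 and Bambi stay left of 0 under every setting shown, while Bmp2, Bmp6, Bmp7, Gdf11 and Nbl1 have values on both sides. The crosses of Wfikkn2, Bmp2 and Bambi rest on 0 mutant UMIs, so their distance from 0 is set by the 1 CPM added.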

How the data were processed

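Per the labels and the study's methods, the authors made 10x Genomics 3′ libraries and counted UMIs against mm10. The submitters' processing notes name Cell Ranger 7.1.0 and Seurat 4.1.1, while the matrix headers carry version 3.1.0. The deposited values are raw UMI counts per gene and barcode, and the annotation used is not given in the sources used here. Barcodes with at least 200 genes and at most 15% mitochondrial UMIs were kept. Doublets were called with Scrublet (scanpy 1.11.5) at the expected rate of 0.8% per 1000 barcodes, which removed 1618 control and 1176 mutant barcodes. Scrublet's own threshold marked 0% and 5.46%. Clustering used Seurat 5.3.0 with 2000 variable genes, anchor integration, 30 components and resolution 1, leaving out the members, pathway lists, RPE and melanocyte markers and sex-linked genes (1958 genes used).

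Clusters were named where at least 3 markers of a list counted, and no fewer than did not (at least 10% of cells, 2-fold over other clusters), and where no other list had more markers among the 10 leading genes. After the clusters had been seen, clusters far shallower than their library and those sharing at least 5 of 10 leading genes with a shallower cluster of another class were left unnamed, and mesenchyme and pericyte names were merged. Unnamed clusters held 2485 control and 1308 mutant cells. Classes with at least 50 cells per library were compared. UMIs were summed per class and scaled to CPM, with exact Poisson, exact conditional Poisson (ratios) and Clopper-Pearson intervals at 95%. Thinning used 1 random draw, and expected values over all draws were computed from each cell's UMIs. A count of 0 was given 3 counts as its upper limit. Scripts were tested on simulated data. All 10 members are named, as are pathway genes past the 2-fold rule in RPE-like cells and the 3 genes most like each member. Further pathway genes and clusters were named after their values were seen. The members and lists were chosen with earlier results of these data known. Positions are from GENCODE M21 on GRCm38 and promoters from RefSeq. Alternatives covered pseudocount, filters, depth, doublets, scaling, sex, resolution, a pigment gate and free RNA.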

Additional observations from a re-analysis of the deposited data

Results flagged for a closer look

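Bmp7 had counting intervals apart from 0 in opposite directions in different classes. Its log2 ratio (mutant over control) was 0.46 in retinal progenitor-like cells, -0.84 in neurogenic-like cells and -0.32 in RPE-like cells. With 1 library per genotype the difference between classes was not tested, and the neurogenic value rests on 15 control and 6 mutant UMIs and has 1 CPM added, while the 2-fold rule used the plain ratio.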

How the results depend on the processing

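No paired analysis was possible because there was 1 library per genotype. The log2 ratios of the 8 compared members in RPE-like cells, and their count past the 2-fold rule, were recomputed under 18 other settings, of which the last 3, a deep and a shallow cluster at resolution 2 and the level expected over all draws of the thinning, were added after seeing the data, as was the rule that picks RPE-like cells at that resolution (10 of 12 RPE markers counted in each cluster). Neither cluster met the naming rule: the shallow cluster had no RPE marker and the melanocyte markers Mlana and Gpnmb among its 10 leading genes, and the deep cluster, led by Klk4, Rgr, Slc16a8 and Ttr, matched the melanocyte list best (8 of 9 markers). Wfikkn2 and Bmp4 were lower in the mutant under all 18, from -4.37 to -3.44 for Wfikkn2 and from -1.84 to -1.31 for Bmp4 on the log2 scale outside cells of at most 2000 UMIs. In those cells Bmp4 was -3.60 on 1 mutant UMI (-8.97 to -1.12), and Wfikkn2 was -7.38 on 38 control and 0 mutant UMIs, a size set by the 1 CPM added, with an interval that reaches up to -0.84 and has no lower end. The other Wfikkn2 values outside its counting interval were -3.44 in 1 random draw of the thinning to 1000 UMIs (-4.28 expected over all draws), -3.56 in cells with Y-linked and no Xist UMIs, and -3.47 in the shallow cluster. The number of members past the 2-fold rule was 2 in the reported setting and 4 in cells with Xist and no Y-linked UMIs (Bmp4, Wfikkn2 and Bambi lower, Nbl1 higher, with 81 control and 80 mutant cells). It was 3 in the deep cluster, where Nbl1 (1.18, 10 and 20 UMIs) joined Bmp4 and Wfikkn2 and Bambi was -0.17 (-0.78 to 0.42), and 3 in the shallow cluster, where Bambi (-1.77, 57 and 10 UMIs) joined them and Nbl1 was -0.52 (-1.16 to 0.07). The share of all genes past the rule was computed only in the reported setting (5.28% lower, 2.88% higher). The counts under other settings therefore have no such share beside them. Bmp7 changed sign in cells of at most 2000 UMIs (0.45), in the draw of the thinning (0.52, with 0.019 expected) and as a mean of each cell's CPM (0.016), and Gdf11 in cells of at most 2000 UMIs (1.10). The cause was not tested. The pathway genes named in the text were put through the same settings after seeing the data, and the list medians were not. Crim1 was lower in all 18 (-1.82 to -1.41) and Id3 higher in all 18 (0.97 to 2.03). Msx1 changed sign in cells with at most 5% mitochondrial UMIs (0.56), with Xist and no Y-linked UMIs (2.35), under the pigment gate (0.49) and in the deep cluster (0.69), on 0 to 4 control and 1 to 6 mutant UMIs, and had none in cells of at most 2000 UMIs. In those cells Atoh8 (-4.21) and Id4 (-3.28) also changed sign, on 0 mutant UMIs, and in the draw of the thinning Bmpr1a did (-0.16, with 0.17 expected). Sostdc1 changed sign in cells with at most 5% mitochondrial UMIs (-0.14), with Xist (-0.025) or Y-linked (-0.024) UMIs only, and in the shallow cluster (-0.12). In the draw of the thinning, the class with the highest level was kept in 18 of 20 gene and library pairs (Bmp4 in the mutant moved from RPE-like to skeletal muscle-like and Bmp2 in the control from astrocyte-like to endothelial-like cells), but in 19 of 20 by the expected level, where only Wfikkn2 in the mutant moved, and in cells with more than 4000 UMIs in 20 of 20. The depth of mutant RPE-like cells of at most 2000 UMIs (42 cells) limits every value from them.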
